A study of Mus musculus with 6 samples.

Results

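The transcripts of 10 genes of the circadian clock (Per1, Per2, Per3, Dbp, Tef, Nr1d1, Nr1d2, Arntl, Clock and Ciart) were followed in hippocampi of mice that carry an Rbfox1 transgene and of controls. A transcript was taken as a member when its name, without the final number, was that of a listed gene, which gave 52 of the 133944 isoforms in the table and 10 of the 53354 gene symbols. The list was chosen by values of these same libraries: Per3 had been found lower in the transgenic mice, and the other 9 genes were added to see whether the rest of the clock had moved with it. The comparison between the genotypes is therefore given for these genes as a description, with values and standard errors. No p-value is printed for them, and where they are counted as called, the share of all genes called stands beside the count.

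RNA from the hippocampus was sequenced in 3 N-cre and 3 N-cre;Fox1 mice, all C57BL/6 and 3 months old, with 1 library per mouse. N-cre mice carry the Nes-cre transgene alone, in which the nestin promoter drives Cre recombinase. With a reporter allele, the study located the activity of this Cre in hippocampus to granule neurons of the dentate gyrus and pyramidal neurons of CA1 and CA3. N-cre;Fox1 mice carry Nes-cre too, together with 1 copy of an Rbfox1 cDNA placed in the Gt(ROSA)26Sor locus, which the CAG promoter transcribes once Cre has removed a floxed stop. Rbfox1 is an RNA-binding protein that controls splicing and the stability of transcripts in neurons. The Gt(ROSA)26Sor allele was made in embryonic stem cells of another strain and then backcrossed to C57BL/6J. The time of day at which the hippocampi were collected is not given in the sources used here, and transcripts of clock genes depend on it.

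The expected counts summed to 40.5 M to 62.1 M read pairs per mouse, and levels are given as counts normalized between libraries (TMM). The gene sum of Rbfox1 did not separate the genotypes, so that it does not check the labels. It was 15286, 14456 and 14698 normalized counts in N-cre replicates 1, 2 and 3. In N-cre;Fox1 replicates 1, 2 and 3 it was 15939, 13571 and 15283. For N-cre;Fox1 hippocampus the paper reports a modest rise of Rbfox1 mRNA (data not shown) and, by immunoblot, of the protein. Some libraries stood apart from others of their genotype. Transcripts of 5 choroid plexus markers (Ttr, Kl, Clic6, Folr1 and Kcne2) summed to 118592 normalized counts in N-cre replicate 3 and 266916 in N-cre;Fox1 replicate 2, against 1389 to 1904 in the other 4 mice. Replicate 1 of either genotype was high in Xist, the RNA that silences 1 X chromosome of females (23514 and 22029 counts), against 17.3 to 22.1 in the others. Markers of hippocampal neurons were present in every library, with a summed level of 46402 to 54101. Of 6 markers of the suprachiasmatic nucleus and hypothalamus, 5 (Avp, Six6, Oxt, Nms and Prok2) had 0 to 10.5 counts in each mouse.

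The mammalian clock is a loop of transcription and translation that runs in nearly every cell. CLOCK and BMAL1, the product of Arntl, bind E-boxes together and activate Per, Cry, Nr1d1, Nr1d2, Dbp and Ciart, and the PER and CRY proteins then hold their own activators in check. REV-ERBα and REV-ERBβ, encoded by Nr1d1 and Nr1d2, repress Arntl through ROR elements, and the PAR bZIP factors DBP and TEF activate genes with D-boxes, Per3 among them. When tissue is sampled along the day, Per, Dbp, Nr1d1 and Ciart transcripts rise and fall in phases roughly opposite to that of Arntl. The hippocampus holds such a clock, which takes its timing from the suprachiasmatic nucleus and from hormones and activity.

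On a scale that corrects for transcript length (TPM, expected counts divided by annotated length and scaled to a common total per library), Tef was the most abundant of the 10 genes in N-cre mice, at 259 ± 4.89 TPM (SD, n = 3). Dbp followed at 112 ± 2.73 and Nr1d1 at 92.1 ± 2.92. Per1 at 61.5 ± 8.33 TPM overlapped Nr1d2 at 57.1 ± 1.89, and Per3 at 31.8 ± 0.239 lay above all N-cre values of the genes after it. Per2 at 26.4 ± 4.3, Ciart at 23.6 ± 0.949 and Arntl at 22.8 ± 1.83 overlapped one another, and Clock was the lowest at 15.3 ± 0.7 TPM. In N-cre;Fox1 mice the order of Dbp and Nr1d1 was no longer separated, because Dbp spread from 72.7 to 103 TPM around the 92.1 to 96.7 TPM of Nr1d1. The mean of Per3 was 25.9 ± 1.6 TPM there, level with Arntl at 25.9 ± 1.57.

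Period genes encode the repressors of the loop, and the 3 of them took different courses. The Per3 gene sum was 3349, 3270 and 3339 normalized counts in N-cre replicates 1, 2 and 3, and 2926, 2715 and 2600 in N-cre;Fox1 replicates 1, 2 and 3. All 3 N-cre;Fox1 mice lay under all 3 N-cre mice, with a log2 fold change of -0.27 ± 0.0444 (SE). The N-cre mice lay close to each other. Their coefficient of variation for Per3 was 1.31%, where counting error alone gives 1.84%, and 12.8% of the 10367 genes with a mean of at least 500 counts varied less. In N-cre;Fox1 mice the coefficient of variation was 6.01%, against a median gene of 4.1%.

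Per1, which responds to glucocorticoids and to neuronal activity in addition to the clock, went the other way. It had 7043, 5370 and 5837 normalized counts in N-cre replicates 1, 2 and 3, and 7305, 7192 and 7681 in N-cre;Fox1 replicates 1, 2 and 3, a log2 fold change of 0.28 ± 0.102 (SE). The N-cre;Fox1 mice did not overlap the N-cre mice, but N-cre replicate 1 came close to them. Per2 was 4089, 2938 and 3449 in N-cre and 4270, 3501 and 3510 in N-cre;Fox1 mice, with a log2 fold change of 0.10 ± 0.156 and overlapping genotypes. Replicate 1 was the highest for Per2 in either genotype. Per1 and Per2 were among the more variable genes in N-cre mice, where 97.8% and 98.4% of the genes with a mean of at least 500 counts varied less.

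The ratio of Per1 to Per3 within a library does not depend on how libraries are scaled. It was 2.1, 1.64 and 1.75 in N-cre replicates 1, 2 and 3, and 2.5, 2.65 and 2.95 in N-cre;Fox1 replicates 1, 2 and 3. The ratio of Per2 to Per3 was 1.22, 0.899 and 1.03 in N-cre and 1.46, 1.29 and 1.35 in N-cre;Fox1 mice, which also did not overlap. The ratio of Dbp to Per3 did overlap, at 1.19, 1.25 and 1.17 in N-cre and 1.29, 1.06 and 1.02 in N-cre;Fox1 mice.

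**Figure D1:**
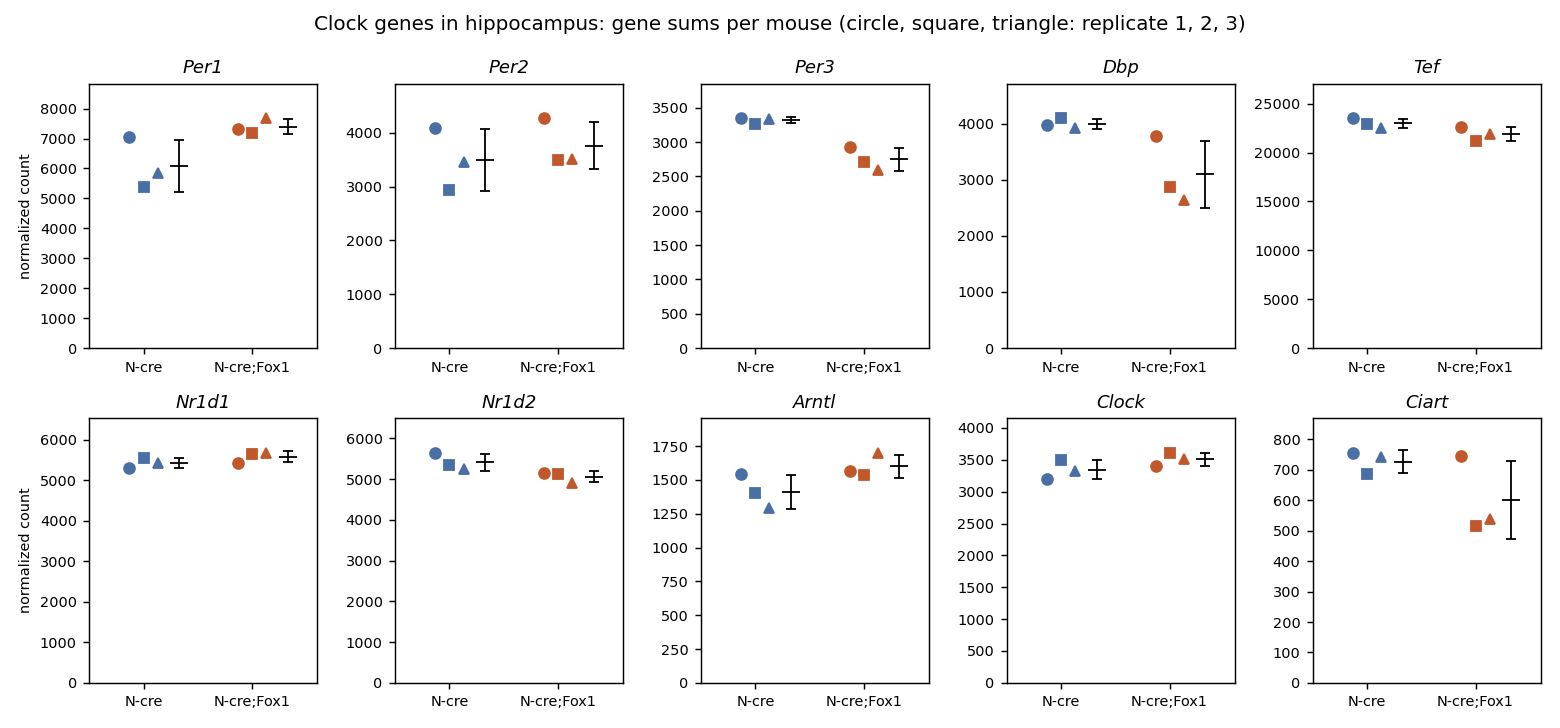
Normalized counts (vertical axes, from 0) of the 10 clock genes, 1 panel per gene, with each mouse as a point by genotype and the mean and SD as a bar to the right of the points. Per3 lay lower in all 3 N-cre;Fox1 mice (2600 to 2926 against 3270 to 3349), Per1 higher, and Dbp and Ciart were low in replicates 2 and 3 of that genotype while replicate 1 stayed near the N-cre values.

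Per3 (ENSMUSG00000028957.12) lies on the minus strand of chr4:151003652-151044665 in mm10, within the span of Camta1 on the same strand, with which it shares no exonic base. Its promoter is shown because it is the only one among those of the 9 clock genes with an entry in the RefSeq table (Per2 has none) to hold a D-box, the element that DBP and TEF bind. The window runs from 250 bases before the transcription start to 50 bases after it, at chr4:151044616-151044915 on the minus strand (RefSeq, GRCm38.p6), and the capitals mark the D-boxes.
Per3: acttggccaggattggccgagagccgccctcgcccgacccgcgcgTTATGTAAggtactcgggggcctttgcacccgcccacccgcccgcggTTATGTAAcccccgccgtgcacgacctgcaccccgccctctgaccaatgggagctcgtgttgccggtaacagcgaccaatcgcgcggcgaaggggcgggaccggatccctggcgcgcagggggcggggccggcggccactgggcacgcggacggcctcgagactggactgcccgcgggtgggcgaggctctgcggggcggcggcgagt
The D-boxes begin 205 and 158 bases before the start. A D-box, searched as TTATGTAA or TTACGTAA on both strands, was present in 1.06% of the 32851 promoter windows of that table, and 8 of them held at least 2.

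DBP and TEF are the D-box activators. Dbp had 3973, 4097 and 3921 normalized counts in N-cre replicates 1, 2 and 3, and 3772, 2874 and 2642 in N-cre;Fox1 replicates 1, 2 and 3, the lowest fold change of the 10 genes at -0.37 ± 0.146 (SE, log2). No N-cre;Fox1 mouse reached an N-cre mouse, but replicate 1 came near the lowest of them, and replicates 2 and 3 held most of the difference. The coefficient of variation of Dbp was 2.27% in N-cre and 19.3% in N-cre;Fox1 mice, and 97.4% of genes varied less in the latter. Tef, the most abundant, was 23519, 22870 and 22556 in N-cre and 22599, 21216 and 21879 in N-cre;Fox1 mice, with overlapping genotypes and a log2 fold change of -0.07 ± 0.0407. The ratio of Tef to Dbp was 5.58 to 5.92 in N-cre mice and 5.99, 7.38 and 8.28 in N-cre;Fox1 replicates 1, 2 and 3, so that Dbp separated from its paralog in the same pair of mice.

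Ciart encodes CHRONO, a repressor of CLOCK and BMAL1. It was 756, 685 and 741 normalized counts in N-cre replicates 1, 2 and 3, and 747, 515 and 539 in N-cre;Fox1 replicates 1, 2 and 3, with a log2 fold change of -0.28 ± 0.138 (SE). The genotypes overlapped, since N-cre;Fox1 replicate 1 lay within the N-cre range and the other 2 lay below it. The ratio of Ciart to Dbp lay from 0.167 to 0.19 in the controls and from 0.179 to 0.204 in the transgenic mice, so that the 2 transcripts kept nearly the same proportion in every mouse. N-cre;Fox1 replicate 2 is one of the choroid plexus libraries, and without both of these the log2 fold change was -0.16 for Ciart, -0.33 for Dbp, -0.26 for Per3 and 0.27 for Per1.

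The Ciart promoter (chr3:95882179-95882478, minus strand, RefSeq, GRCm38.p6) is shown as the one with the most E-boxes among the clock genes, written in capitals.
Ciart: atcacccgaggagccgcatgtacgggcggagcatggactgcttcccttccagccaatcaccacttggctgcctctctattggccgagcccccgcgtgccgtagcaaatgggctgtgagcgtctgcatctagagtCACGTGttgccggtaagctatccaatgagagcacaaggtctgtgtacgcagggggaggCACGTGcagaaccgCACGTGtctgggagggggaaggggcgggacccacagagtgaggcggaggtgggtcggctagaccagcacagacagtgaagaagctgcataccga
Its E-boxes (CACGTG, which reads the same on both strands) begin 116, 58 and 44 bases before the start, and 29 of the 32851 windows held at least 3, while 7.15% held at least 1. Per1 had 1 E-box, 166 bases before the start that lies nearest to that of its main isoform, in the following window at chr11:69098699-69098998 on the plus strand.
Per1: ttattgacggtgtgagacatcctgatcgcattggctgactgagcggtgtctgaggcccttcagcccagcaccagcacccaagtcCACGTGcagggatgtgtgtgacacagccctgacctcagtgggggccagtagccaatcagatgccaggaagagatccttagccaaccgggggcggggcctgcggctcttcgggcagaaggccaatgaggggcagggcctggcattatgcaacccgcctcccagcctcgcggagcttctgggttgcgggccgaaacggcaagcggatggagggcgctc
Both windows of Tef also held an E-box. No E-box, D-box, ROR element or CRE (TGACGTCA, the element of the cAMP response) of these letters was in the windows of Dbp, Nr1d1, Nr1d2 and Clock, which says nothing of sites farther away.

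The nuclear receptor pair differed little between the genotypes. Nr1d1 was 5290, 5555 and 5428 normalized counts in N-cre replicates 1, 2 and 3, and 5416, 5648 and 5674 in N-cre;Fox1 mice, a log2 fold change of 0.04 ± 0.0362 (SE) with overlap. Nr1d2 was 5644, 5347 and 5237 in N-cre and 5138, 5133 and 4916 in N-cre;Fox1 mice, a log2 fold change of -0.10 ± 0.0391 with no overlap. Nr1d1 is a target of CLOCK and BMAL1 like Dbp, and the ratio of Nr1d1 to Dbp was 1.33, 1.36 and 1.38 in N-cre replicates 1, 2 and 3, and 1.44, 1.97 and 2.15 in N-cre;Fox1 replicates 1, 2 and 3. The levels of Nr1d1 in replicates 2 and 3 of N-cre;Fox1 were thus not low where those of Dbp were.

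The activators of the loop lay slightly higher in N-cre;Fox1 mice, with overlap. Arntl was 1543, 1400 and 1294 normalized counts in N-cre replicates 1, 2 and 3, and 1563, 1535 and 1700 in N-cre;Fox1 replicates 1, 2 and 3, a log2 fold change of 0.18 ± 0.0688 (SE). Clock was 3199, 3496 and 3330 in N-cre and 3404, 3608 and 3513 in N-cre;Fox1 mice, a log2 fold change of 0.07 ± 0.041. N-cre replicate 1 overlapped the N-cre;Fox1 mice for Arntl, and N-cre replicate 2 did so for Clock. Of the 2 promoter windows of Arntl, 1 held a ROR element (TAGGTCA or TGGGTCA, either strand), the element through which REV-ERBα and REV-ERBβ repress this gene, and it is shown with the element in capitals (chr7:113207261-113207560, plus strand, RefSeq, GRCm38.p6).
Arntl: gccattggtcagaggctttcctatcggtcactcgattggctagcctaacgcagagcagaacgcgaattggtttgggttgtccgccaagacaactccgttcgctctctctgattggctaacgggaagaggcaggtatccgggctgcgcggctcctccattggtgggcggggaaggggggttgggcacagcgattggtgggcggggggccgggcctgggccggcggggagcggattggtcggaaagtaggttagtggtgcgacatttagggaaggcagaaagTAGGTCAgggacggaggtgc
A ROR element was in 6.45% of all windows of that table.

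**Figure D2:**
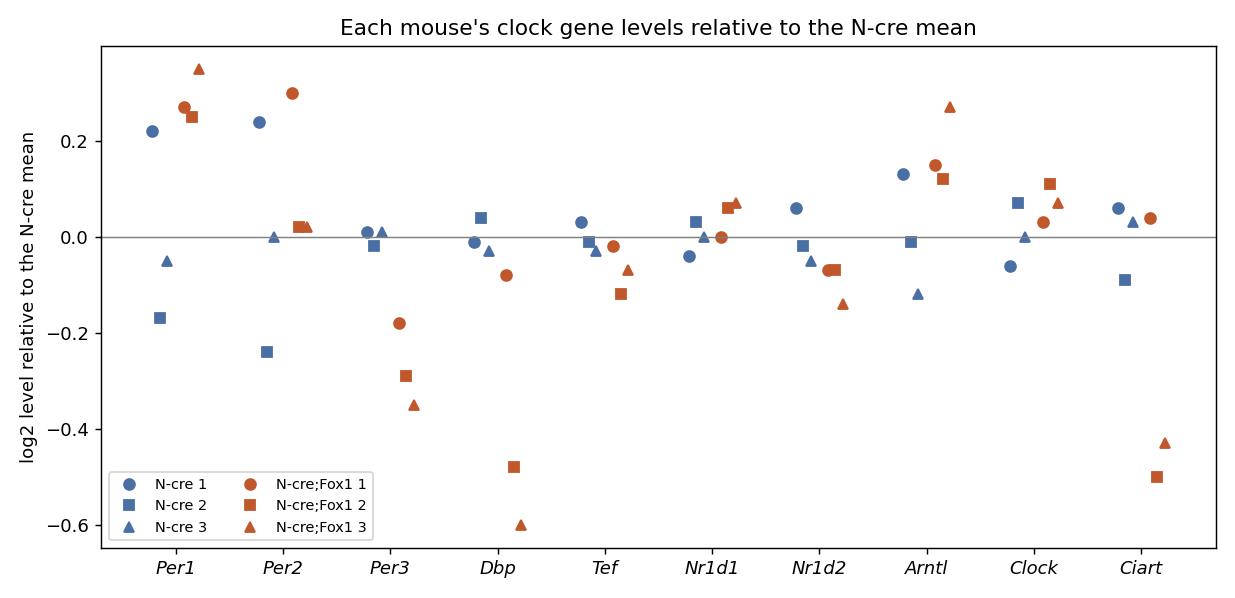
Log2 level of each clock gene in each mouse relative to the mean of the N-cre mice (vertical axis), with 1 point per mouse. Dbp was at -0.48 and -0.6 and Ciart at -0.5 and -0.43 in N-cre;Fox1 replicates 2 and 3 but at -0.08 and 0.04 in replicate 1, whereas Per3 was at -0.18, -0.29 and -0.35 in replicates 1, 2 and 3.

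Across the 10 genes, the N-cre;Fox1 mean was higher for 5 and lower for 5, and the median log2 fold change was -0.01, against 0 over all 18924 genes tested. Without overlap between the genotypes, 3 were lower (Per3, Dbp and Nr1d2), where 6.10% of all genes tested were, and 1 was higher (Per1), where 6.04% were. None of the 10 passed an adjusted p of 0.05 (edgeR, quasi-likelihood, Benjamini-Hochberg over all genes), by which 0.0264% of all genes passed. At an unadjusted p under 0.05 there were 4 (Per1, Per3, Nr1d2 and Arntl), where 6.19% of genes were. DESeq2 called 1, Per3, where it called 0.264% of genes. These counts come from the contrast that chose the list, and nothing is read from them.

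A clock sampled at another phase can carry its Per-like and its Arntl-like transcripts in opposite directions. Whether and how far it does so depends on the time of day of sampling, which is not given. A shift of phase was therefore not tested, and the following values are a description. The 8 genes grouped as Per-like were Per1, Per2, Per3, Dbp, Tef, Nr1d1, Nr1d2 and Ciart. Genes were grouped without a time course, and whether those of a group share 1 phase was not tested. Each gene was taken relative to its mean over the 6 mice. The mean log2 level of the 8 minus that of Arntl and Clock was 0.14, 0.02 and 0.15 in N-cre replicates 1, 2 and 3. It was 0.05, -0.15 and -0.21 in N-cre;Fox1 replicates 1, 2 and 3. N-cre;Fox1 replicate 1 lay within the N-cre range and replicates 2 and 3 below it. Per3, on which the list was chosen, is one of the 8. Without it the values were 0.14, 0 and 0.14 in N-cre and 0.06, -0.15 and -0.2 in N-cre;Fox1 mice. With Npas2, a paralog of Clock, in place of Clock, the values were 0.01, 0.01 and 0.16 in N-cre and 0.02, -0.07 and -0.14 in N-cre;Fox1 mice. The 8 genes did not share the lower level: in N-cre;Fox1 replicates 2 and 3, Per1 was at 0.25 and 0.35 and Nr1d1 at 0.06 and 0.07 on the log2 scale relative to the N-cre mean. Per3 was lower in N-cre;Fox1 replicate 1 too, a mouse in which Dbp, Ciart, Tef and Nr1d1 were between -0.08 and 0.04. In the same mouse Nr1d2 was at -0.07 and Clock at 0.03, while Per1 was at 0.27, Per2 at 0.3 and Arntl at 0.15.

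The pattern of the Per3 gene sum over the 6 mice was compared with that of the 13737 other genes with a mean of at least 100 normalized counts, by Pearson's correlation of log2 levels, as a description. The 5 most like it were Cabin1, an inhibitor of calcineurin (r = 0.9917), Parp11, a mono-ADP-ribosyltransferase (0.9885), Ankrd45 (0.9874), the splicing factor gene Srsf5 (0.9852) and AI854703 (0.9824). None of them is a clock gene. Among the members, Dbp came nearest at rank 59 (0.93), then Ciart at rank 311 (0.84), Nr1d2 at 324 (0.84) and Tef at 372 (0.82). Per2 lay at rank 7593 (-0.08), and Per1 (-0.72), Clock (-0.73), Arntl (-0.75) and Nr1d1 (-0.76) ran against Per3. These coefficients rest on 6 mice in 2 groups that differ in Per3, so that any gene separating the genotypes scores high in size.

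The isoform table held 52 transcripts of the 10 genes, of which 30 passed the filter on low counts and 23 had a mean of at least 100 normalized counts. The Per3 reads were divided mainly between Per3-201, the protein-coding transcript of 21 exons and 5999 nt, and Per3-204, a processed transcript of 7 exons and 3663 nt without annotated coding sequence. Per3-201 had 1696, 1608 and 1816 normalized counts in N-cre replicates 1, 2 and 3, and 1571, 1524 and 1461 in N-cre;Fox1 replicates 1, 2 and 3, a log2 fold change of -0.17 ± 0.0616 (SE). Per3-204 had 1543, 1547 and 1419 in N-cre and 1261, 1089 and 1059 in N-cre;Fox1 mice, a log2 fold change of -0.40 ± 0.0825. Both were lower without overlap.

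The share of Per3-204 in the Per3 expected counts was 45.3% ± 2.45 in N-cre and 41.3% ± 1.57 in N-cre;Fox1 mice (SD, n = 3 each), with overlap, and that of Per3-201 was 51.4% ± 2.75 and 55.4% ± 1.44. Since 96.3% of the bases of Per3-204 are also in Per3-201, how RSEM divided the reads between them is uncertain. Per3-205, a retained-intron transcript, had 66.8, 90.4 and 84.8 normalized counts in N-cre and 71.9, 57.9 and 45.2 in N-cre;Fox1 mice, with overlap.

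**Figure D3:**
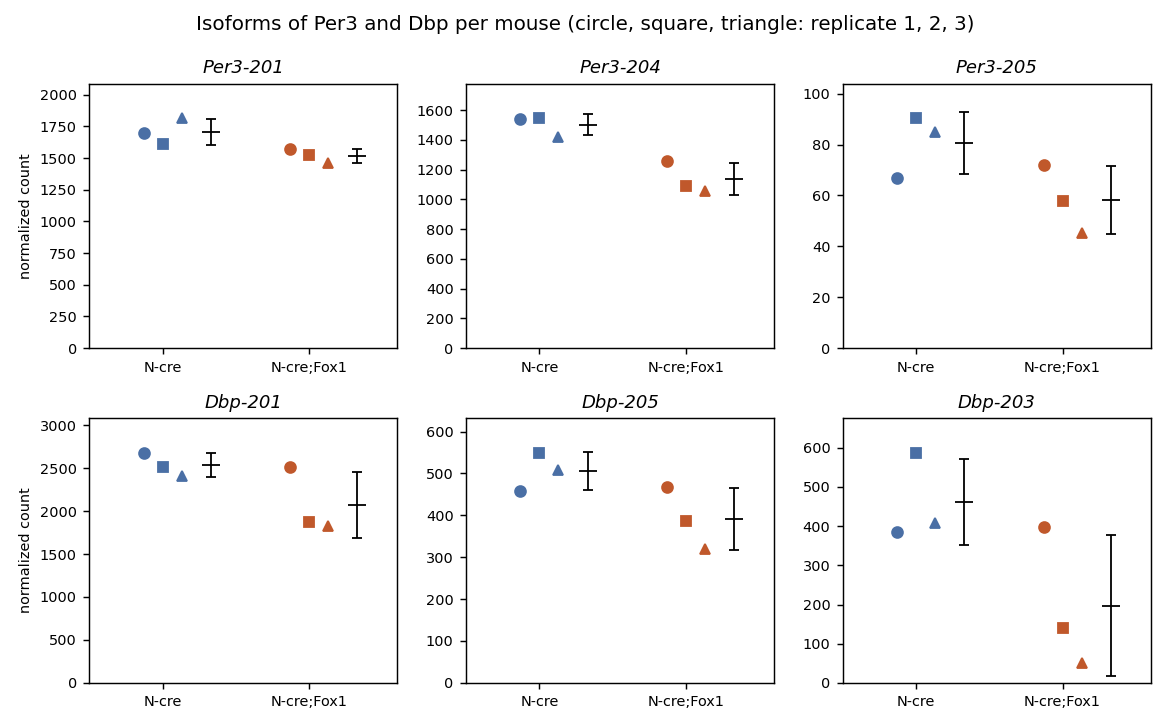
Normalized counts (vertical axes, from 0) of 3 Per3 and 3 Dbp isoforms, with each mouse as a point by genotype and the mean and SD beside the points. Per3-201 and Per3-204 were lower in all 3 N-cre;Fox1 mice, while the Dbp isoforms were lowest in replicates 2 and 3.

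Dbp reads came mostly from Dbp-201, the full coding transcript, at 2678, 2518 and 2405 normalized counts in N-cre replicates 1, 2 and 3, and 2519, 1871 and 1828 in N-cre;Fox1 replicates 1, 2 and 3. Dbp-203, a shorter coding transcript all of whose bases are also in Dbp-201, had 386, 587 and 409 in N-cre and 398, 141 and 51.7 in N-cre;Fox1 mice. The retained-intron transcript Dbp-205 had 459, 549 and 509 in N-cre and 467, 387 and 319 in N-cre;Fox1 mice. These 3 overlapped between the genotypes through N-cre;Fox1 replicate 1, and each was lower in replicates 2 and 3 of N-cre;Fox1 than in any N-cre mouse. The other retained-intron transcript, Dbp-202, was lower without overlap (log2 fold change -0.51 ± 0.168), and Dbp-204 was level at -0.01 ± 0.236.

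Of the other isoforms, Nr1d2-201 (-0.10 ± 0.0436), Tef-202 (-0.11 ± 0.0407) and the low Ciart-206 (10.7 ± 3.59 normalized counts against 22.5 ± 6.6) were lower without overlap. Tef was divided between Tef-201 and Tef-202, which begin at different first exons, at 45.8% ± 2.5 and 51.5% ± 2.2 in N-cre and 47.1% ± 1.88 and 50.1% ± 1.35 in N-cre;Fox1 mice. Per1-201 took 77.6% ± 5.23 and 78.1% ± 3.08 of the Per1 reads, and Per2, Nr1d1, Nr1d2 and Clock each came from 1 transcript by 97.5% or more on average. The remaining isoforms with a mean of at least 100 counts overlapped between the genotypes, with log2 fold changes from -0.48 ± 0.257 (Ciart-202) to 0.30 ± 0.425 (Per1-203). They were Per1-201 (0.28), Per1-202 (0.23), Arntl-201 (0.18), Per2-201 (0.10), Nr1d1-202 (0.09), Clock-205 (0.07), Nr1d1-201 (0.04), Arntl-206 (0.03), Tef-203 (-0.02), Tef-201 (-0.03), Tef-207 (-0.06) and Ciart-201 (-0.19). Among isoforms that did not pass the filter, Clock-204 (5.13 ± 3.13 normalized counts in N-cre, 10.4 ± 1.56 in N-cre;Fox1) and Clock-206 (6.88 ± 0.978 and 4.07 ± 1.22) did not overlap. Among isoforms with a mean of at least 100 counts, no share within a gene separated the genotypes.

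Over the 30 isoforms tested, 12 were higher and 18 lower, with a median log2 fold change of -0.05 against 0 over all isoforms, and 6 were lower and 0 higher without overlap, where 5.66% and 5.86% of all 50556 isoforms were. By edgeR's adjusted p of 0.05 none was called, where 0% of all isoforms were, 4 had an unadjusted p under 0.05, where 4.78% did, and DESeq2 called 1, Per3-204, where it called 0.425%. These counts again come from the contrast behind the list.

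Rbfox proteins bind the RNA word UGCAUG, so the isoforms with a mean of at least 100 counts were searched for TGCATG on the sense strand. It occurred once in Per3-201, in the 3′ UTR, and at the same place in Per3-204, at chr4:151005137-151005142 on the minus strand of mm10 (GENCODE M21), shown with 12 bases to either side and the word in capitals.
Per3-201: gaagttaagcctTGCATGgcaaaaagcttc
Per2-201 held 3 matches, 2 of them in its coding sequence. Tef-201 and Tef-202 held the same 2 and Clock-205 held 1, all in the 3′ UTR. Tef-203, a retained-intron transcript, held 2 at other places, and Tef-207 held none. The isoforms of Per1, Dbp, Nr1d1, Nr1d2, Arntl and Ciart held none. Of the 29316 protein-coding isoforms tested, 48.6% held at least 1 match, so that a match in Per3 is common among transcripts. Introns and the shorter word GCATG were not searched, and binding of Rbfox1 to these transcripts was not tested.

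**Figure D4:**
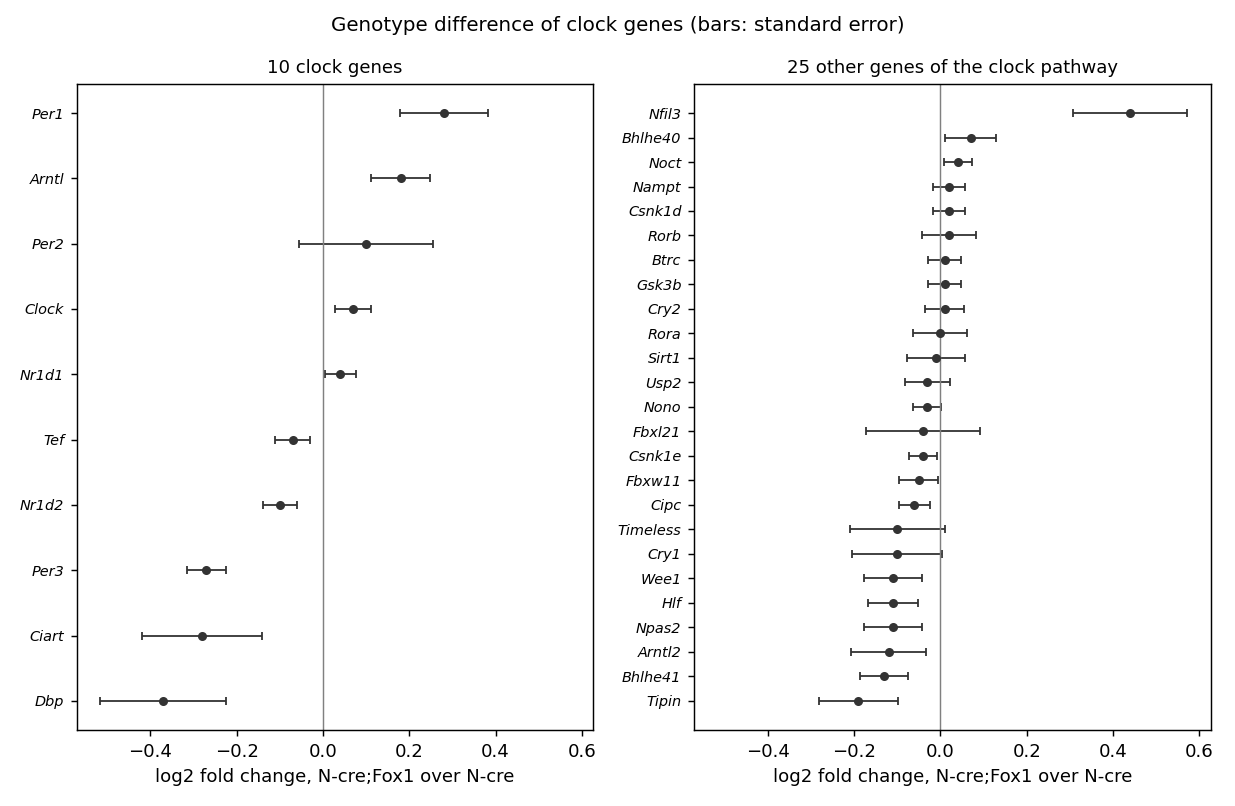
Log2 fold change of N-cre;Fox1 over N-cre (horizontal axis) with its standard error as a bar, for the 10 clock genes (left) and 25 other genes of the clock pathway (right). The 10 genes run from -0.37 (Dbp) to 0.28 (Per1), and the 25 run from -0.19 (Tipin) to 0.44 (Nfil3).

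A further 25 genes of the clock pathway were tested over all genes. None passed an adjusted p of 0.05 by edgeR, DESeq2 or limma-voom, and 2 had an unadjusted p under 0.05 by edgeR, where 6.19% of all genes did. Of the 25, 10 were higher and 15 lower, with a median log2 fold change of -0.03, and 4 lay lower (Csnk1e, Tipin, Cipc and Nono) and 1 higher (Nfil3) without overlap, where 6.10% and 6.04% of all genes were.

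The 2 with an unadjusted p under 0.05 were Nfil3 and Bhlhe41. NFIL3 (E4BP4) competes with DBP and TEF for D-boxes as a repressor. It was 443, 362 and 420 normalized counts in N-cre replicates 1, 2 and 3, and 448, 594 and 620 in N-cre;Fox1 replicates 1, 2 and 3, with a log2 fold change of 0.44 ± 0.132 (SE) and an adjusted p of 0.693 by edgeR's quasi-likelihood test. As with Dbp, replicates 2 and 3 stood apart and replicate 1 was near the N-cre mice, in the opposite direction, and the ratio of Nfil3 to Dbp was 0.0885 to 0.112 in N-cre mice and 0.119, 0.207 and 0.235 in N-cre;Fox1 replicates 1, 2 and 3. Bhlhe41 (DEC2), a repressor of E-box genes, was 1779 ± 99.2 and 1626 ± 79.2 (log2 fold change -0.13 ± 0.0558, adjusted p = 0.799 by edgeR, overlapping).

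The cryptochromes, which repress CLOCK and BMAL1 with the PER proteins, were close in the genotypes. Cry1 was 692 ± 65.3 in N-cre and 645 ± 84.5 normalized counts in N-cre;Fox1 mice (log2 fold change -0.10 ± 0.105), and Cry2 was 8789 ± 359 and 8845 ± 421 (0.01 ± 0.0446). Npas2, which can stand in for Clock, was 1480 ± 122 and 1371 ± 78.4 (-0.11 ± 0.0678), and Rorb, which activates through ROR elements, 1028 ± 39.1 and 1042 ± 63.4 (0.02 ± 0.0625). Bhlhe40 (DEC1) was 6337 ± 353 and 6668 ± 495 (0.07 ± 0.0595), and Hlf, the third PAR bZIP factor, was 7460 ± 682 and 6897 ± 63.6 (-0.11 ± 0.0582). All 6 overlapped between the genotypes.

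The remaining genes of the pathway include kinases and ubiquitin ligases that set the stability of PER and CRY, and clock-controlled outputs. Higher in N-cre;Fox1 mice, with none past the test, were Noct, Csnk1d, Nampt, Btrc and Gsk3b. Lower, with none past the test, were Arntl2, Csnk1e, Fbxl21, Fbxw11, Timeless, Tipin, Cipc, Nono, Sirt1, Usp2 and Wee1, and Rora was at 0 after rounding. Tipin was the lowest of the 25 at -0.19 ± 0.0917 (adjusted p = 0.808 by edgeR).

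Per1, Per2 and Dbp also answer to signals from outside the clock, so 3 lists of such genes were set beside them. Activity-induced genes (Fos, Fosb, Fosl2, Junb, Egr1, Egr2, Egr4, Arc, Npas4, Nr4a1, Ier2 and Dusp1), which neurons transcribe within minutes of firing, lay on average at -0.01, 0.61 and 0.68 on the log2 scale relative to the N-cre mean in N-cre;Fox1 replicates 1, 2 and 3, and at -0.05 to 0.06 in N-cre mice. Of these 12 genes, all had a fold change above 0, with a median of 0.44. By edgeR 0 were called and 3 had an unadjusted p under 0.05, where 6.19% of all genes did. The N-cre;Fox1 mice with low Dbp and Ciart and high Nfil3 were thus the ones with high activity-induced transcripts.

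A list of heat-shock and cold-inducible genes set the same mice apart on average. The list (Cirbp, Rbm3, Hsph1, Dnajb1, Hspa1a, Hspa1b and Hspa8) lay at -0.03, 0.33 and 0.35 in N-cre;Fox1 replicates 1, 2 and 3. It lay at -0.02 to 0.02 in N-cre mice, with 5 of 7 genes higher and a median of 0.21. By edgeR 0 were called and 5 had an unadjusted p under 0.05, where 6.19% of all genes did. Of these 5, 3 were higher (Hsph1, Hspa1b and Hspa8) and 2 lower (Cirbp and Rbm3). Hspa1b, for example, had 1101 to 1116 normalized counts in N-cre mice and 1205, 2108 and 2230 in N-cre;Fox1 replicates 1, 2 and 3, while Cirbp, the cold-inducible RNA-binding protein, had 2753, 2537 and 2484 against 2723, 3361 and 3084 in N-cre mice, with overlap through replicate 1. Rbm3, also cold-inducible, was lower in all 3 N-cre;Fox1 mice, at 4981, 5338 and 5391 against 5487, 6033 and 5444, and was lowest in replicate 1. The part of activity or heat-shock signals in the levels of Dbp, Ciart, Nfil3 and Per3 was not tested.

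Glucocorticoid targets (Fkbp5, Sgk1, Tsc22d3, Zbtb16, Plin4, Cdkn1a, Errfi1, Ddit4, Nfkbia and Klf9) instead set replicate 1 of either genotype apart on average. Fkbp5 was an exception, at 3965, 4115 and 3861 normalized counts in N-cre and 3932, 2698 and 3084 in N-cre;Fox1 replicates 1, 2 and 3. It was low in N-cre;Fox1 replicates 2 and 3, as Dbp was. The list lay at 0.40, -0.23 and -0.17 in N-cre replicates 1, 2 and 3, and at 0.24, -0.13 and -0.15 in N-cre;Fox1 replicates 1, 2 and 3, with 5 genes higher, 5 lower, a median of -0.02 and 0 called, also at an unadjusted p under 0.05. Replicate 1 was likewise the highest for Per2 in either genotype and for Per1 in N-cre mice. These 2 mice are also the ones with high Xist. Without them, the log2 fold change of Per1 was 0.41, that of Per2 0.14, that of Per3 -0.31, that of Dbp -0.53 and that of Ciart -0.43. The part of glucocorticoid signals in Per1 and Per2 was not tested, and high Xist and replicate number cannot be told apart.

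**Figure D5:**
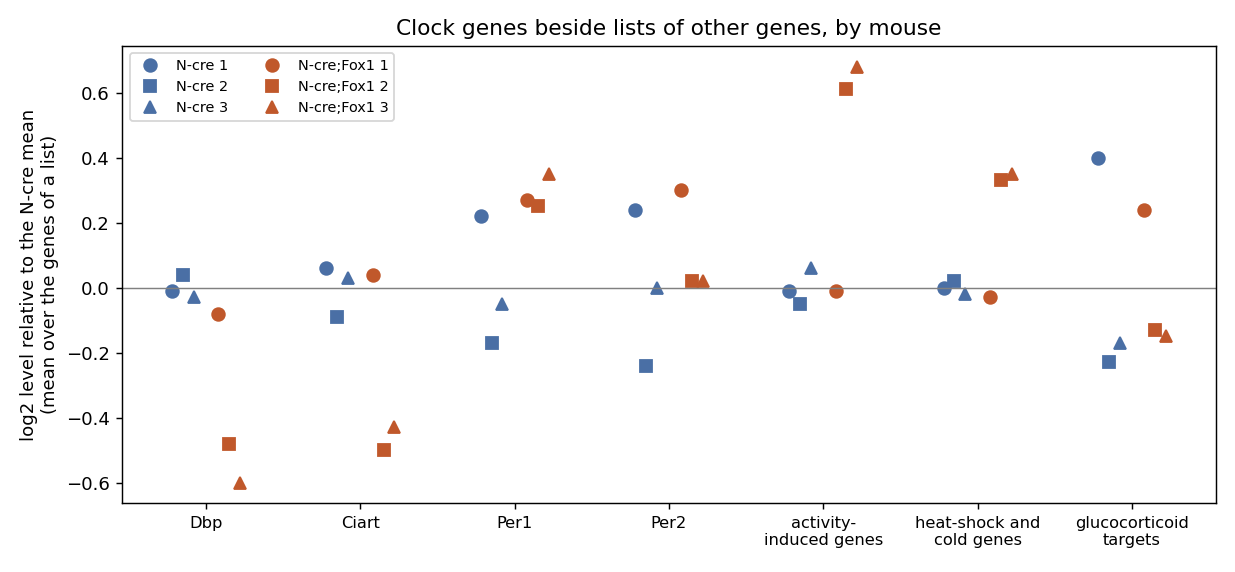
Log2 level relative to the N-cre mean (vertical axis) in each mouse for Dbp, Ciart, Per1 and Per2 and, as the mean over the genes of a list, for activity-induced genes, heat-shock and cold genes, and glucocorticoid targets. N-cre;Fox1 replicates 2 and 3 are low for Dbp and Ciart. They are high for the activity-induced list (0.61 and 0.68) and the heat-shock and cold list (0.33 and 0.35). Replicate 1 of either genotype is high for glucocorticoid targets (0.40 and 0.24) and Per2.

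Of 5 astrocyte markers, 4 (Gfap, Aqp4, Slc1a2 and Gja1) lay higher in N-cre;Fox1 mice without overlap, where 6.04% of all genes were. They were higher by 0.10 to 0.38 on the log2 scale, and Aldh1l1 was at -0.14 with overlap. By edgeR 0 were called and 4 had an unadjusted p under 0.05, where 6.19% of all genes did. The summed level of the 5 markers, most of it Slc1a2, was 166152 to 180968 against 151623 to 159147 in N-cre mice. Those of oligodendrocytes and microglia overlapped. Of 8 markers of hippocampal neurons, 7 overlapped too, and Wfs1 was lower without overlap, where 6.10% of all genes were. Wfs1 was at -0.35 ± 0.151 (SE, log2), and the median of the 8 was -0.02. In bulk tissue, a different number of cells of a type and a different RNA level per cell cannot be told apart. The part of cell composition in the level of Per3 was not tested. Exons overlap with those of a gene on the opposite strand for Dbp (539 nt, with Sphk2), Nr1d1 (263 nt, with Thra), Tef (193 nt, with Gm17597) and Arntl (33 nt, with Gm45355). The library kit keeps the strand, but whether RSEM was run with a strand setting is not given in the sources used here, so reads of these stretches are uncertain. Per3 lies within the span of Camta1 on the same strand, so no strand setting separates reads of unspliced Camta1 RNA from those of Per3. The part of such reads in the Per3 counts was not tested.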

How the data were processed

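The authors sequenced stranded total RNA libraries as paired reads. Per the labels and the paper's methods they trimmed with Cutadapt 1.18, mapped to mm10 with STAR 2.5.2b, and deposited RSEM 1.3.0 expected counts per GENCODE isoform, not normalized. Depth was 40.5 M to 62.1 M read pairs per mouse, and counting error alone gives a coefficient of variation of 0.698% (Tef) to 3.93% (Ciart) for the clock genes. The authors' own EBSeq calls are not part of the table.

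Expected counts were summed by gene symbol, and the sums, like the isoform counts, were then rounded for the fits. Genes and isoforms were filtered with filterByExpr (minimum count 10, minimum total 15) and compared over all 18924 genes or 50556 isoforms with edgeR 4.0.16 in R 4.3.3 (robust quasi-likelihood fit, TMM, a genotype term alone) and Benjamini-Hochberg adjustment at a threshold of 0.05. Alternatives are in the closing section, with DESeq2 1.42.0 and limma 3.58.1. Each fit was first tested on simulated data. TPM, exons and positions come from GENCODE M21, a later annotation of mm10, in which 133445 of 133944 isoforms had a length. Promoters are those of RefSeq for GRCm38.p6.

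Named were the 10 members, their isoforms with a mean of at least 100 normalized counts, 25 other pathway genes (some others of the pathway are not reported here), and the 5 genes most like Per3. Isoforms under that mean (Per3-205, Ciart-206, Clock-204 and Clock-206) were named after their values were seen. Members and lists were chosen with earlier results of these data known. Each library is 1 mouse, so SDs give the spread between mice. The SE of a log2 fold change is an error of the genotype difference, derived from the fold change and the F statistic of edgeR's test. No p-value is printed for members, and their counts of calls are a description, since this contrast chose them.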

Additional observations from a re-analysis of the deposited data

How the results depend on the processing

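Of the 18 alternatives for gene sums, each kept the sign of the main log2 fold change for all 10 clock genes, apart from Per2 at 0 without N-cre replicate 2. Per3 ranged from -0.32 to -0.23, Dbp from -0.53 to -0.27, Ciart from -0.46 to -0.16 and Per1 from 0.2 to 0.41. The number of the 10 genes called by an adjusted p of 0.05 was 0, and it was 1 (Per3) with no filter, where 0.145% of all genes were called, 1 (Per3) with DESeq2 (0.264%), 3 (Per1, Per3 and Dbp) with both replicate 1 mice left out (0.342%), and 4 at an unadjusted p under 0.05. Without single mice it was 0 to 2, the latter (Per3 and Dbp) without N-cre;Fox1 replicate 1 (0.15% of all genes). Per3 is the gene on which the list was chosen. Among the isoforms the count was 0, 1 (Per3-204) with DESeq2 and 4 at an unadjusted p under 0.05. The count of other clock-pathway genes was 0 under all 18. The median of the 10 genes was -0.04 to -0.01 with each mouse left out. The difference of the Per-like genes from Arntl and Clock, N-cre;Fox1 minus N-cre, was -0.21. It was -0.18 with Per3 left out (chosen after seeing the data) and -0.12 with Npas2 in place of Clock. With each mouse left out it was -0.29 to -0.16. The cause of these differences was not tested.

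Replicate numbers did not pair the mice: same-numbered mice deviated together for number 1 only (correlations 0.38, -0.1 and -0.21). With the replicate number as a replicate block, 0 clock genes, 0 clock isoforms and 0 other pathway genes were called. Leaving out both choroid plexus libraries, chosen after seeing the data, also called 0. For Per3 in N-cre mice the spread (1.31%) lay below counting error (1.84%), and for Dbp and Ciart in N-cre;Fox1 mice (19.3% and 21.3%) well above it. No group held enough mice for a test of outlying samples.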

Other observations

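Of the 6 markers of the suprachiasmatic nucleus and hypothalamus, Vip alone was well expressed, as hippocampal interneurons also make this peptide. It was 928, 795 and 776 normalized counts in N-cre replicates 1, 2 and 3, and 747, 663 and 760 in N-cre;Fox1 replicates 1, 2 and 3, lower without overlap, with a log2 fold change of -0.21 and an adjusted p of 0.799 by edgeR's quasi-likelihood test. Of the cold-inducible RNA-binding proteins, Rbm3 was 5487, 6033 and 5444 in N-cre and 4981, 5338 and 5391 in N-cre;Fox1 mice, lower without overlap (log2 fold change -0.11, adjusted p = 0.799 by edgeR). Srsf5, one of the genes whose pattern over the mice was most like that of Per3, was 19496, 19607 and 19842 in N-cre and 18884, 18150 and 17916 in N-cre;Fox1 mice, and Cabin1 was 6673, 6647 and 6662 against 6509, 6375 and 6375.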
